A study of Homo sapiens with 6 samples.

Results

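The 8 genes FOS, FOSB, FOSL1, FOSL2, JUN, JUNB, JUND and ATF3 encode subunits of the transcription factor AP-1 or a close relative of them, and the acetylation of histone H3 at lysine 27 (H3K27ac) is described here at each of them. The genes were chosen by name. Their peaks are those that overlapped the gene's span on hg19, given to the nearest kb, with 5 kb added on each side. All 8 genes had at least 1 peak in all 6 libraries, and together they held between 21 and 35 peaks of lists that held between 174843 and 410176.

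The mark was mapped by ChIP-seq, the sequencing of DNA pulled down with an antibody to it, in CCRF-CEM, an established human leukemia line of T lymphoblasts. The 2 genotypes were parental, labelled wild-type, and SLFN11 knockout. Each genotype gave a control in the solvent DMSO, a sample treated with camptothecin (100 nM) over 2 h, and one treated over 4 h. The libraries are called parental control, parental 2 h, parental 4 h, knockout control, knockout 2 h and knockout 4 h. Whether the knockout cells are 1 clone is not given in the sources used here. Each group is 1 library, so there is no spread between replicates, and no test between groups was possible. Camptothecin traps topoisomerase I on DNA, and SLFN11 is a Schlafen family protein that acts at stressed replication forks. The comparisons bear on whether the drug changes the chromatin of immediate early genes, and whether SLFN11 matters for it.

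AP-1 is a pair of basic leucine zipper (bZIP) proteins. A JUN protein pairs with another JUN protein or with a FOS protein, FOS proteins need a JUN partner to bind DNA, and ATF3 pairs with both itself and JUN proteins. Several of these genes are immediate early genes, whose transcription starts within minutes of a stimulus without new protein synthesis, and in T cells AP-1 acts with NFAT to switch on cytokine genes. H3K27ac marks active promoters and enhancers, and an immediate early gene can carry it before it is induced.

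The promoters are shown because every gene had a peak within 2 kb of its 5′ edge in every library. The strongest peaks of FOSL1 and ATF3, and of FOSL2 in parental control and knockout 4 h, lay elsewhere. RefSeq (GRCh38.p14) gave a promoter for 7 of the 8 genes, and a second one for ATF3 that is not shown. The 250 bases before the start were searched on both strands. TGACGT is the core of the cyclic AMP response element, TGACGTCA is the whole element and holds the core, TGACATCA is the variant known from the JUN promoter, and TGACTCA is the classic AP-1 site. These letters, other than TGACTCA, which was in none of them, are in capitals on the 5′ to 3′ strand of each gene.
FOS: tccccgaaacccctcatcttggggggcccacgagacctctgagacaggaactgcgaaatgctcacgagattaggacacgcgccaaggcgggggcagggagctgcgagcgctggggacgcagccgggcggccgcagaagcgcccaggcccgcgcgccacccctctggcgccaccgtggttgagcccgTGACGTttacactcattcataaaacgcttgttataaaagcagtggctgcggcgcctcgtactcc
FOSB: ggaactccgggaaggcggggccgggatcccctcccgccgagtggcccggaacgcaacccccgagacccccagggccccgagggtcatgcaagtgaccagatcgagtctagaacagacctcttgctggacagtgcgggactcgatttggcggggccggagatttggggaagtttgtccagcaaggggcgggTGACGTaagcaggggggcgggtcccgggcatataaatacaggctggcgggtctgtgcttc
FOSL2: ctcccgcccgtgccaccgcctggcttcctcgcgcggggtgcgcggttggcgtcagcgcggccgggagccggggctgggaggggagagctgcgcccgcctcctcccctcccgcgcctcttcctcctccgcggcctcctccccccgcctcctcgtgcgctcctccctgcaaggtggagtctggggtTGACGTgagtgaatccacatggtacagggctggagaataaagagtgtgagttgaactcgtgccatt
JUN: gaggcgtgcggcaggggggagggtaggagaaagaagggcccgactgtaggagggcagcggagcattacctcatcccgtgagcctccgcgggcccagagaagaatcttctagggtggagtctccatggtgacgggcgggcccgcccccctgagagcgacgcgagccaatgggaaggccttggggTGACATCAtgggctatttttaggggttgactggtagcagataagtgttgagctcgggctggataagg
JUNB: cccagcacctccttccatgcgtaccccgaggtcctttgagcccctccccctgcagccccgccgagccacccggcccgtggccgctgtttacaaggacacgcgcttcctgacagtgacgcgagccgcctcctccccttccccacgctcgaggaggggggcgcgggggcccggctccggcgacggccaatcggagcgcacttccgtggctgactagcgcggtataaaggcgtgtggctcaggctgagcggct
JUND: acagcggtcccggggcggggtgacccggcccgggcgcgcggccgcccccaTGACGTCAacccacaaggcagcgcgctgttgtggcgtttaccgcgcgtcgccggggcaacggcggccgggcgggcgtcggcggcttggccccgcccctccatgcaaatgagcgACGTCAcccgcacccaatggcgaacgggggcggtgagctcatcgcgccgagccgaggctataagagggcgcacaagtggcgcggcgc
ATF3: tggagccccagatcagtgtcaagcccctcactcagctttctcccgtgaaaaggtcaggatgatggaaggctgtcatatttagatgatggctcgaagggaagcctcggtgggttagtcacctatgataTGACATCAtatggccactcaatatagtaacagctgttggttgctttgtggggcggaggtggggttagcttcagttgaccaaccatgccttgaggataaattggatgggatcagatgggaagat

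The core TGACGT stood at nearly the same place in the 3 FOS family promoters, with its first base at −64 from the start in FOS, −60 in FOSB and −66 in FOSL2. JUN had TGACATCA at −67, and ATF3 had the same letters at −123. JUND had the whole element TGACGTCA at −200, which counts as a core on each strand, and a further core at −87, read on the other strand. JUNB had none of these letters in this window, and it had the TATA box letters TATAAA at −31, as FOS had at −33 and FOSB at −30. Of 35116 RefSeq promoters of the same length, 7.10% held TGACGT, 1.65% TGACGTCA, 2.38% TGACATCA, 4.20% TGACTCA and 10.7% TATAAA. The JUND promoter was also rich in CpG, the dinucleotide of CpG islands, with 40 in 250 bases, a number reached by 2.16% of promoters. JUNB had 27, FOS 25, FOSL2 24, FOSB 19 and JUN 14, against a median of 11 over all promoters, and ATF3 had 4. A match describes the letters and is not a site of binding.

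The fold and the rank describe each gene. Fold is the authors' own value for a peak, the ratio of fragment pileup to local background, and it serves here only to describe peaks. The rank of a gene is the place of its strongest peak, by the deposited p, among the strongest peaks of 182184 windows of 14 kb that held a peak in at least 1 library, with rank 1 the strongest. Gene windows were between 13 and 67 kb long, so the long windows of FOSL2 and ATF3 had more room for a strong peak than a window of 14 kb.

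The libraries differed in depth. The background pileup, a measure of relative depth solved from each list, was between 0.506 and 0.715 fragments per base in 5 libraries and 0.168 in knockout 4 h. Knockout 4 h also had the longest list, 410176 peaks, and the fewest peaks that reach 5 in −log10 q, with 5671 against 13140 to 15748 elsewhere. In every statement on knockout 4 h, the treatment and the low background of that library cannot be told apart. As a check of the label, the T cell genes CD3D, CD3E, CD3G and LCK had median ranks between 4499 and 9567. The B cell gene MS4A1 stood at 44716.5 and the liver gene ALB at 100064, but the myeloid gene SPI1 also carried a strong peak, with a median rank of 13251.5. SLFN11 had a peak in all 6 libraries, which does not test a knockout made by a frameshift.

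**Figure D1:**
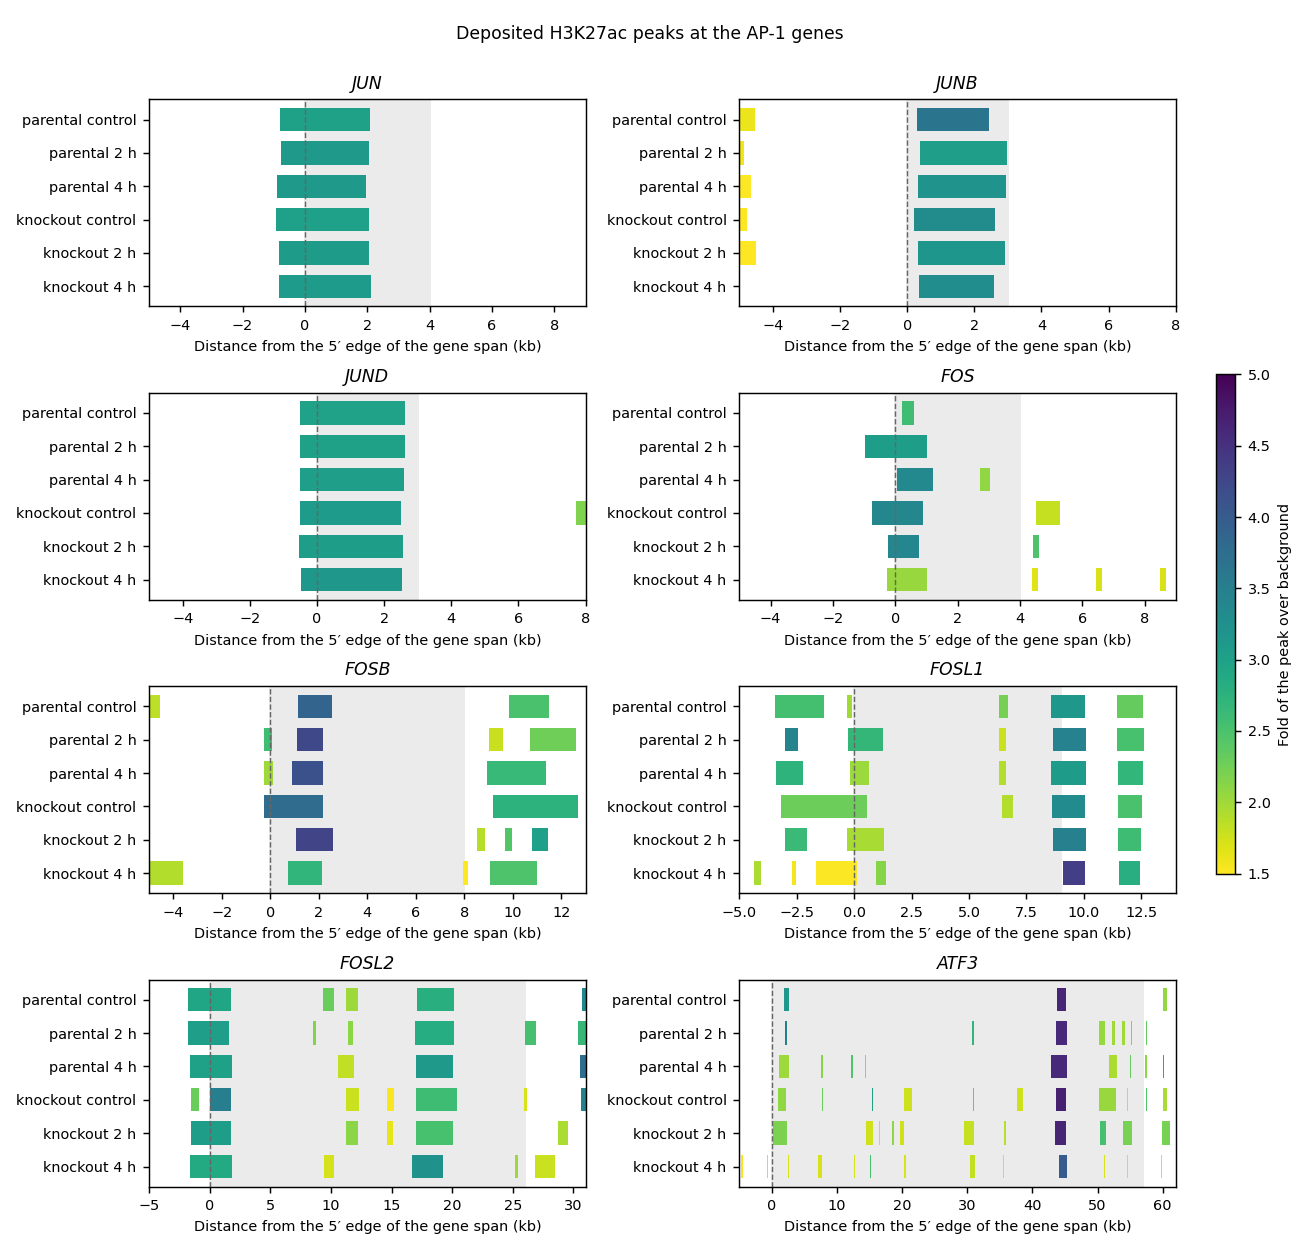
Deposited H3K27ac peaks at the 8 genes, 1 row per library, plotted by distance in kb from the 5′ edge of the gene span (dashed line; span in grey) and coloured by the fold of the peak. JUN and JUND have a single wide block at the edge in all 6 rows, FOS has a block that differs in length from row to row, and ATF3 has its strongest peak about 44 kb inside.

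By p the JUN family had the strongest median ranks, and JUND and JUN had peaks of nearly the same width in all 6 libraries. JUND, a subunit that most cells make without a stimulus, had 1 wide peak over the 5′ edge of its span in every library. On chromosome 19 it ran from 18390384 to 18393515 in parental control. The peak was 3132, 3122 and 3093 bp wide in the parental libraries (control, 2 h, 4 h) and 3016, 3081 and 3005 bp in the knockout libraries. Over the 6 libraries its start varied by 119 bp and its end by 54 bp, and its fold lay between 2.98 and 3.13. Only 0.503% to 1.28% of the peaks of each list were as wide. JUND ranked 6640, 6280 and 5026 in the parental libraries and 6206, 5627 and 5083 in the knockout libraries, always listed as control, 2 h, 4 h. Its ranks by p thus spanned a narrow range, and in both genotypes the 2 treated libraries ranked above their control. Ranked by fold instead, parental 2 h stood at 29297, below parental control at 26004.

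JUN, the founding member and a strong activator, had the same shape. Its only peak in each library lay on chromosome 1, from 59247925 to 59250809 in parental control, over the 5′ edge. It was 2885, 2831 and 2875 bp wide in the parental libraries and 2985, 2900 and 2954 bp in the knockout libraries. The fold lay between 3.02 and 3.12, the start varied by 155 bp and the end by 159 bp. The ranks of JUN were 9105, 8649 and 7455 in the parental libraries and 7992, 7447 and 9363 in the knockout libraries. Parental control and knockout 4 h were the lowest placed of the 6, and no library stood far from the others. RefSeq places the divergent transcript JUN-DT within 5 kb, and the peak cannot be divided between both transcripts.

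JUNB, often a weaker activator that can hold JUN in check, was marked over most of its short span. Its peak on chromosome 19 ran from 12902302 to 12904431 in parental control. Widths were 2130, 2596 and 2614 bp in the parental libraries and 2410, 2598 and 2235 bp in the knockout libraries. The fold was 3.66 in parental control and between 3.05 and 3.31 in the other 5. JUNB ranked 4615, 7274 and 5775 in the parental libraries and 7226, 7586 and 7938 in the knockout libraries. Parental control therefore had the narrowest and the strongest JUNB peak of the 6. HOOK2 overlaps JUNB in RefSeq, and a peak there cannot be divided between the 2 genes.

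**Figure D2:**
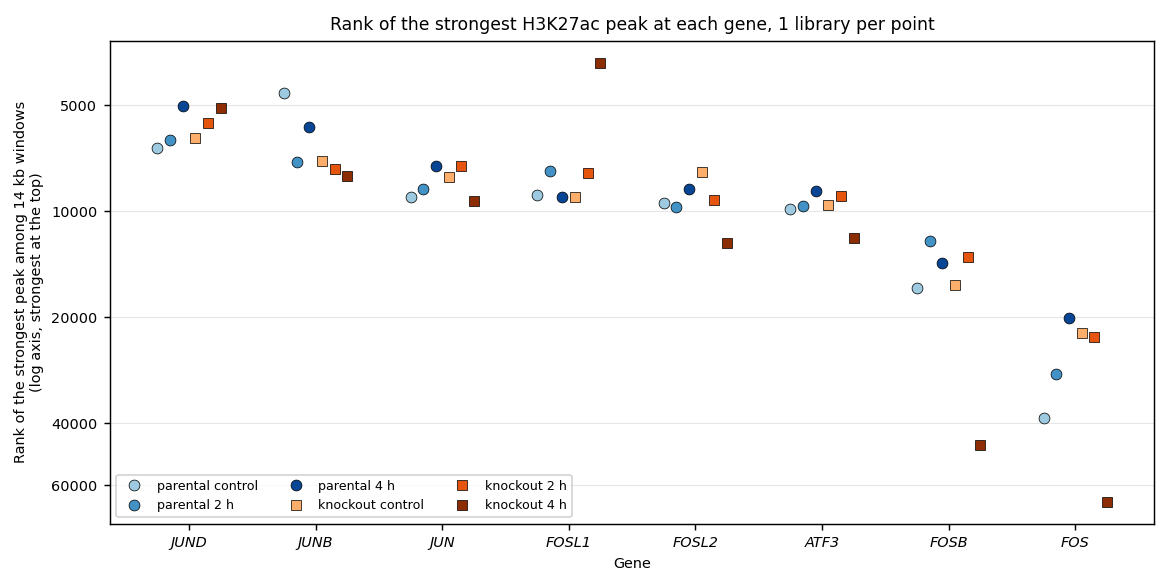
Rank by p of the strongest peak of each gene (log axis, strongest at the top), 1 point per library, parental cells as circles and knockout cells as squares. The JUN genes, FOSL1, FOSL2 and ATF3 lie close together, FOSB and FOS lie lower, and knockout 4 h stands apart at FOSL1, FOSB and FOS. The points of FOSL1 are those of a peak past its 3′ end.

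The FOS family was more varied. FOS, the immediate early subunit whose transcript is made and lost within an hour of a stimulus, had the weakest median rank by p of the 8 genes' strongest peaks. Its peak lay at the 5′ edge on chromosome 14. In parental control the peak was 404 bp wide (from 75745211 to 75745614), in parental 2 h 1987 bp (from 75744021 to 75746007) and in parental 4 h 1165 bp (from 75745063 to 75746227). The knockout libraries had peaks of 1645 bp (control, from 75744252 to 75745896), 1023 bp (2 h) and 1295 bp (4 h). Parental control had the narrowest FOS peak, and the peaks of the 2 treated parental libraries reached further on both sides.

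In strength too, the FOS peak of parental control was below those of the 2 treated parental libraries. Between those 2 the order was the reverse of that in width, with 4 h above 2 h. In parental cells the fold was 2.57 without the drug, 3.07 at 2 h and 3.35 at 4 h. In knockout cells it was 3.38, 3.39 and 2.04. The authors' −log10 p was 2.62, 3.40 and 4.13 in the parental libraries and 4.11, 4.02 and 2.38 in the knockout libraries. On both measures parental 4 h, knockout control and knockout 2 h were close to one another, parental 2 h was lower, and parental control and knockout 4 h were the lowest. No FOS peak reached a −log10 q of 5, and the highest was 2.25, in parental 4 h.

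In parental cells FOS ranked 38663 without the drug, 29025 at 2 h and 20155 at 4 h. In knockout cells it ranked 22250 without the drug, 22718 at 2 h and 66875 at 4 h. As log2 of the ratio of ranks, with positive values for a stronger place in the library named first, parental 2 h differed from its control by 0.41 and parental 4 h by 0.94. Knockout 2 h differed from its control by −0.03 and knockout 4 h by −1.59. The 2 controls differed as well, by 0.80 in favour of the knockout, and the place of FOS in parental 4 h, 20155, was close to that in knockout control. The parental differences share 1 control library, which also enters the comparison of controls. With the fold in place of p, the knockout 2 h difference was 0.02. The factor that called a change of rank was 2, and the ratios of FOS in parental cells, at most 1.92, and between the controls, 1.74, did not reach it. Windows that ranked between 20001 and 40000 in the control give the background for FOS. Of these, 2.06% ranked stronger and 32.8% weaker by that factor at 2 h in parental cells, and 1.48% and 31.4% at 4 h. In knockout cells the shares were 0.85% stronger and 29.4% weaker at 2 h, and 8.77% and 44.8% at 4 h, where FOS was among the weaker. Between the controls they were 1.24% and 30.9%. The background pileup was 0.603, 0.506 and 0.570 in the parental libraries and 0.699, 0.715 and 0.168 in the knockout libraries, and its part in the FOS values was not tested.

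FOSB, a second immediate early member of the family, had its main peak just inside the span. On chromosome 19 it ran from 45972131 to 45973529 in parental control, starting about 1 kb inside the 5′ edge. The peak was 1399, 1071 and 1280 bp wide in the parental libraries and 2438, 1550 and 1414 bp in the knockout libraries. In knockout control the peak reached over the 5′ edge, to 45970718. Parental 2 h and 4 h had a separate small peak there, 306 and 366 bp wide, with a fold of 2.57 and 2.02, and the other 3 libraries had none. The fold of the main peak was 3.89, 4.24 and 4.13 in the parental libraries and 3.78, 4.30 and 2.71 in the knockout libraries. FOSB ranked 16592, 12182 and 14057 in the parental libraries and 16225, 13539 and 46275 in the knockout libraries. In both genotypes the 2 h library had the highest fold and the strongest rank. A group of weaker peaks past the 3′ end, around 10 kb from the edge, was present in all 6 libraries with a fold of at most 3.02.

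FOSL1, which encodes FRA-1, is known for high levels in invasive epithelial tumours. The strongest peak of its window was not at its 5′ edge but past its 3′ end, on the side where RefSeq lists CCDC85B and FIBP as neighbours. This peak ran on chromosome 11 from 65657936 to 65659452 in parental control, about 9 kb from the 5′ edge, and whether it belongs to FOSL1 cannot be told apart from its neighbours. Its rank was 8995, 7714 and 9141 in the parental libraries and 9122, 7777 and 3788 in the knockout libraries. At the 5′ edge of FOSL1 itself, the strongest peak within 2 kb had a fold of 2.54, 2.68 and 2.02 in the parental libraries and 2.29, 1.95 and 2.14 in the knockout libraries. In parental control that peak ended 1.33 kb outside the edge. These peaks ranked 39094, 37891 and 85086 in the parental libraries and 61837, 90005 and 77807 in the knockout libraries. Counted at its own edge, FOSL1 ranked below FOS in each of the 6 libraries, by little in parental control, where FOS ranked 38663.

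FOSL2, which encodes FRA-2, is a member of the family with slower kinetics than FOS. It had a pair of wide peaks, one over its 5′ edge and one about 18.7 kb inside the span. The peak at the edge was 3499, 3430 and 3419 bp wide in the parental libraries and 3245 and 3482 bp in knockout 2 h and 4 h. In knockout control it was split into peaks of 699 and 1754 bp, the second with the highest fold at this edge, 3.51. The inner peak was 3091, 3209 and 3069 bp wide in the parental libraries and 3443, 3072 and 2554 bp in the knockout libraries. A further peak past the 3′ end ran out of the window in the parental libraries and knockout control. Its fold was 3.37, 2.66 and 3.76 in the parental libraries and 3.47 in knockout control. In parental control and parental 4 h this was the highest fold of the window, and it set the rank by fold there. FOSL2 ranked 9466, 9716 and 8676 in the parental libraries and 7762, 9318 and 12351 in the knockout libraries. The strongest peak was the inner one in parental control and knockout 4 h, and the edge one elsewhere. Changes of rank that involve parental control or knockout 4 h thus compare unlike peaks. At the edge alone FOSL2 ranked 9627 in parental control and 15999 in knockout 4 h. The latter is weaker than knockout control by more than a factor of 2, which is not counted as a call below. The libraries other than knockout 4 h lay close together. FOSL2-AS1 overlaps the gene in RefSeq, and the pair of wide peaks was not divided between them.

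ATF3, a stress-induced member of the ATF family that can repress as a homodimer, had its strongest peak deep inside its span. This peak lay on chromosome 1 from 212781706 to 212783224 in parental control, about 44 kb from the 5′ edge. ATF3 is known to use an internal promoter besides its upstream one, and the peak was not placed on either, for want of an hg19 annotation in this work. The fold of the inner peak was 4.64, 4.59 and 4.60 in the parental libraries and 4.69, 4.65 and 4.01 in the knockout libraries, the highest of the 8 genes in every library but knockout 4 h, where FOSL1 had 4.37. Its rank was 9890, 9700 and 8763 in the parental libraries and 9581, 9083 and 11924 in the knockout libraries.

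The peak at the 5′ edge of ATF3 was weak and less even. Its fold was 3.13, 3.52 and 2.02 in the parental libraries and 2.08, 2.19 and 1.71 in the knockout libraries. It ranked 24994 in parental control and 21789 at 2 h, and between 62152 and 89113 in the other 4 libraries. Parental control and parental 2 h thus stood apart from the rest at this edge. The rest of the ATF3 window held scattered weak peaks, most of them inside the span or past its 3′ end, and the window had 3, 8 and 9 peaks in the parental libraries and 11, 11 and 13 in the knockout libraries.

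Ordered by median rank by p, the genes were JUND (5916.5), JUNB (7250), JUN (8320.5), FOSL1 (8386), FOSL2 (9392), ATF3 (9640.5), FOSB (15141) and FOS (25871.5). With knockout 4 h left out, the ranges of neighbours overlapped from JUND to ATF3. The range of FOSB, 12182 to 16592, lay apart from that of ATF3, 8763 to 9890, and that of FOS, 20155 to 38663, lay apart from that of FOSB. This order did not hold with the fold in place of p. By fold the median ranks were ATF3 (10175), FOSB (13812.5), FOSL2 (19288.5), FOSL1 (20918), JUNB (21705.5), FOS (24136), JUN (25001.5) and JUND (25255.5), so the wide peaks of JUN and JUND led by p and came last by fold. FOS ranked above both JUN and JUND by fold in parental 4 h, knockout control and knockout 2 h. At the 5′ edge alone, ranked by p, FOSL1 (69822) and ATF3 (72120.5) had weaker medians than FOS. A peak within 2 kb of the 5′ edge was present in all 6 libraries at all 8 genes. With only the 30000 strongest peaks of each library this held for 4 genes, JUN, JUNB, JUND and FOSL2, and with a minimum of 5 in −log10 q for 1 gene, JUND. With that minimum JUN, JUNB and FOSL2 lacked such a peak in knockout 4 h only, and had it in the other 5 libraries. FOSB likewise lacked it in knockout 4 h only with the 30000 strongest peaks.

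**Figure D3:**
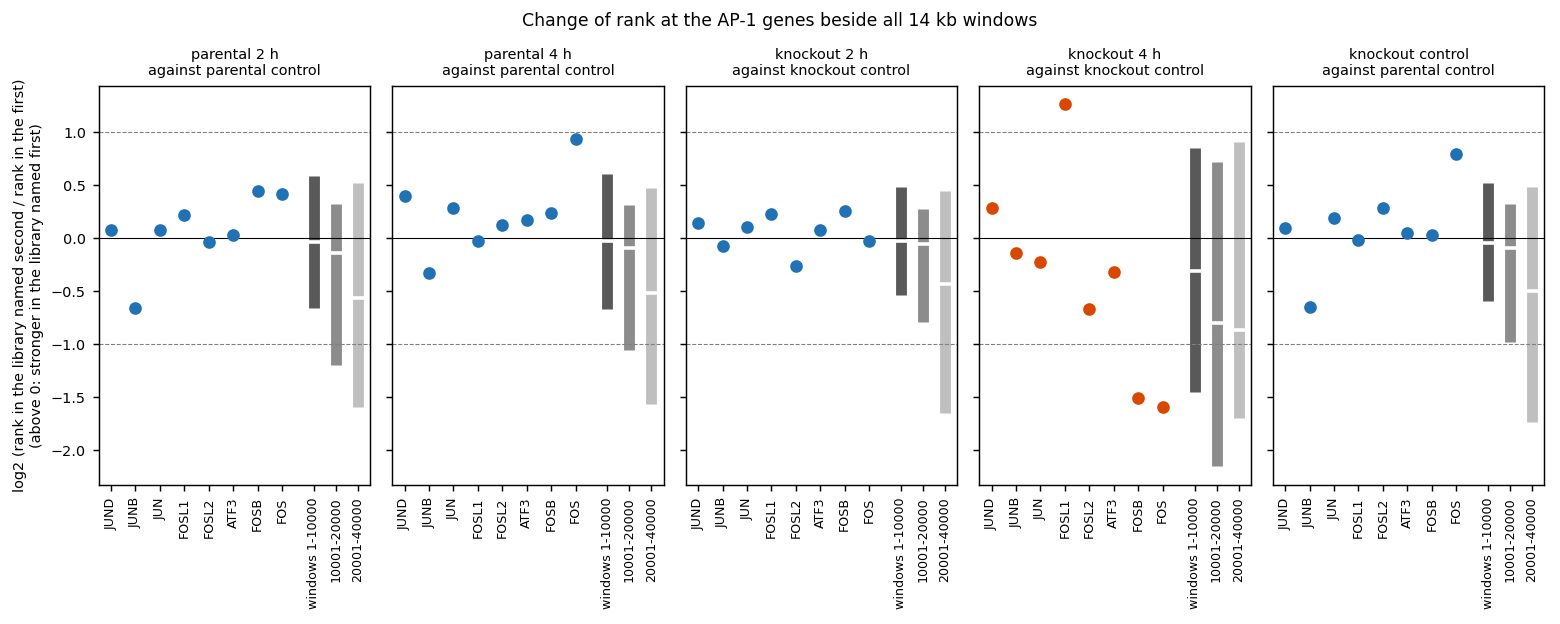
Change of rank of the 8 genes in each comparison (points), as log2 of the rank in the library named second over that in the first, beside all 14 kb windows in 3 bands of rank in the library named second (bars from the 10th to the 90th percentile, white line at the median). FOS in parental 4 h lies at 0.94, just under the dashed line of a factor of 2, and FOSL1, FOSB and FOS pass that line in knockout 4 h only. The points of FOSL1 are those of a peak past its 3′ end.

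Taking all 8 genes, a change of rank was called at a factor of 2. At 2 h in parental cells 0 of 8 genes were called, while of the windows ranked up to 40000 in the control 1.91% were stronger and 20.8% weaker. The windows were banded by their rank in the control, so as a group they lean to weaker places in the other library, and the genes were not chosen in that way. All genes but FOS and FOSB ranked within 1 to 10000 in both controls. Of the parental windows in that band, 3.29% were stronger and 4.38% weaker at 2 h, with a median log2 change of −0.035. At 4 h the shares in that band were 3.49% and 4.59%, with a median of −0.03. At 2 h the median log2 change of the genes was 0.08, with 6 up and 2 down, beside −0.23 over the windows ranked up to 40000. At 4 h in parental cells 0 genes were called, beside 1.66% stronger and 19.6% weaker windows, and the median was 0.21 beside −0.20. Of the 8 genes FOS was the nearest to a call at that time, with a ratio of ranks of 1.92. JUNB went the other way at both times, with −0.66 at 2 h and −0.32 at 4 h. It did so too in knockout control against parental control, with −0.65, and these 3 values share the parental control library in which JUNB ranked highest.

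At 2 h in knockout cells 0 of 8 genes were called, beside 1.04% stronger and 17.3% weaker windows. Their median change was 0.09 beside −0.15. At 4 h FOSL1 was called stronger, at 1.27, and FOS and FOSB weaker, at −1.59 and −1.51. The FOSL1 call rests on the peak past its 3′ end, which cannot be assigned to FOSL1 over its neighbours. At its own 5′ edge FOSL1 ranked 61837 in knockout control and 77807 in knockout 4 h, which is weaker. With the fold as the measure of strength FOSB was no longer called, at −0.80. The background for this comparison was also the largest, with 8.05% of windows stronger and 38.4% weaker, and the median of the genes was −0.27 beside −0.67. In knockout control against parental control 0 genes were called, beside 1.38% stronger and 18.7% weaker windows, and the median was 0.07 beside −0.19. FOS had the largest change there, 0.80, and the other genes lay between −0.65 and 0.29. Of windows ranked 1 to 10000 in knockout control, 2.27% were stronger and 2.73% weaker at 2 h, with a median of −0.03. At 4 h these shares were 8.19% and 20.7%, with a median of −0.31. Between the controls, in the same band of parental control, they were 2.71% and 3.07%, with a median of −0.05.

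A stricter view used fixed regions. They were the union of the 15000 strongest peaks of each library, with knockout 4 h left out. Of 18835 such regions 9 lay in the windows of 7 genes, and FOS had none, since its peak is not among the strongest. A region was called moved when its place among these regions changed by more than 3000. At 2 h in parental cells 1 of the 9 moved, that of FOSB, which was 4176 places stronger, beside 16.9% of all regions. At 4 h 1 of 9 moved, 4315 places stronger, beside 14.6% of all regions. It lay in the window of FOSL1 on chromosome 11 from 65655377 to 65656563, 12.03 kb from its 5′ edge and past its 3′ end. At 2 h in knockout cells 0 of 9 moved, beside 9.19%, and between the controls 0 of 9 moved, beside 15.0%. In knockout 4 h the region past the 3′ end of FOSL1 was 5109 places stronger, beside 31.3% of all regions, and the region at the 5′ edge of FOSL2 changed by −3992 places, towards weaker. In the 4 comparisons without knockout 4 h, at most 1 of the 9 regions moved, a share no higher than the background.

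**Figure D4:**
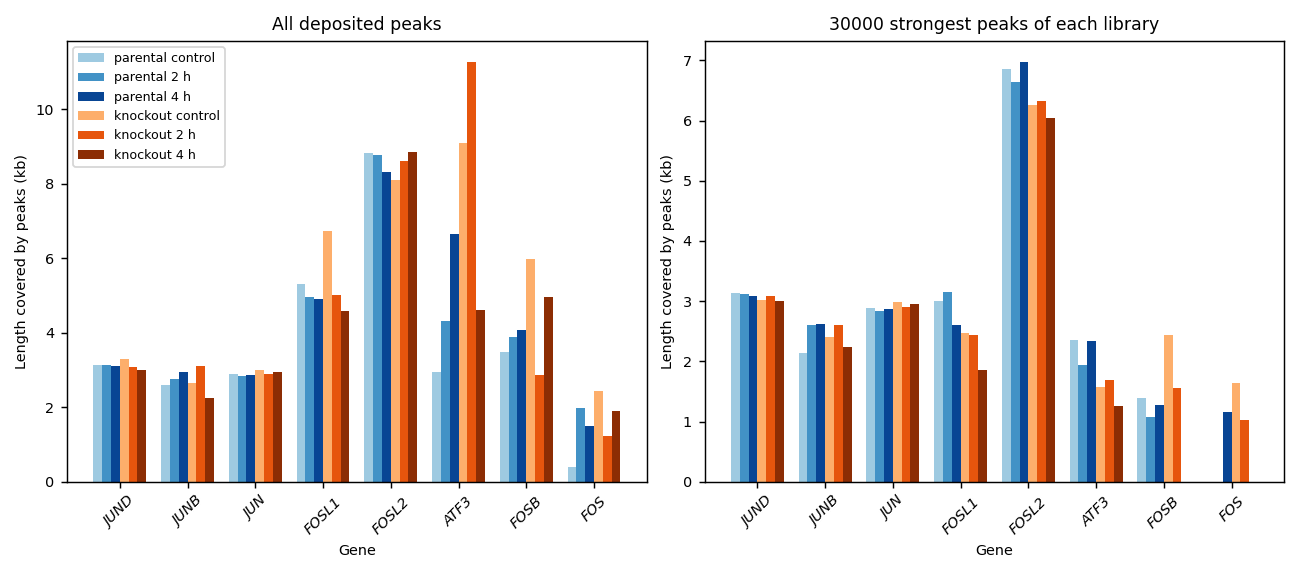
Length covered by peaks in the window of each gene (kb), 1 bar per library, with all deposited peaks on the left and with the 30000 strongest peaks of each library on the right. On the right, FOS has cover in parental 4 h, knockout control and knockout 2 h only.

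Covered length was compared in lists of equal length, the 30000 strongest peaks of each library. In these lists FOS was covered over 1165 bp in parental 4 h, 1645 bp in knockout control and 1023 bp in knockout 2 h, and over 0 bp in the other 3. With a difference of at least 1000 bp as the call, 0 of 8 genes differed at 2 h in parental cells, while 3.08% of 14 kb windows marked in either list gained as much and 8.47% lost as much. At 4 h 1 of 8 did, FOS with 1165 bp more, beside 3.64% of windows that gained and 6.8% that lost as much. In knockout cells 0 genes differed at 2 h, beside 5.93% gained and 4.47% lost. At 4 h FOS had 1645 bp less and FOSB 2438 bp less, beside 15.6% of windows with as great a loss and 2.41% with as great a gain. In knockout control against parental control FOS had 1645 bp more and FOSB 1039 bp more, beside 5.74% of windows that gained and 5.52% that lost as much. By p the FOS peak was at place 31491 of the parental 2 h list, just outside the 30000 taken, and at places 21404, 24086 and 24853 of the parental 4 h, knockout control and knockout 2 h lists, so its cover here is either 0 or the whole peak.

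With all deposited peaks FOS was covered over 404, 1987 and 1494 bp in the parental libraries and over 2422, 1223 and 1895 bp in the knockout libraries. In this count the 2 treated parental libraries were above their control, and the 2 treated knockout libraries below theirs. All peaks together spanned 196.8 Mb for knockout control, 162.2 Mb for knockout 2 h and 194.0 Mb for knockout 4 h. For parental cells the total was between 126.1 and 130.1 Mb. The part of these totals in the FOS cover was not tested. In knockout control 777 bp of that cover was a separate peak with a −log10 q of 0.06. The main FOS peak was 1645 bp there and 1023 bp in knockout 2 h, with a fold of 3.38 and 3.39. At ATF3 the cover with all peaks was 2951, 4321 and 6644 bp in the parental libraries and 9100, 11271 and 4602 bp in the knockout libraries. In lists of equal length it was only 2346, 1941 and 2339 bp, and 1566, 1691 and 1262 bp. The difference between both counts, widest in knockout 2 h, is cover by weaker peaks outside the 30000 strongest.

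Of 13 related loci, 8 encode other bZIP proteins that can pair with or compete with AP-1 and 5 are other immediate early genes or their regulator. At a factor of 2 in rank, 1 of the 13 was weaker in parental 2 h, and 0 were called in parental 4 h, in knockout 2 h or between the controls. The one in parental 2 h was ATF2, a JUN partner, which ranked 2148 in control and 4426 at 2 h. In knockout 4 h 1 was stronger, MAFK, a small MAF protein, which ranked 8179 in control and 3682 at 4 h. EGR1, an immediate early zinc finger factor, stood just under the factor at both times in parental cells, closer than FOS, with ratios of ranks of 1.98 and 1.98. It ranked 7501, 3782 and 3794 in the parental libraries and 5495, 6015 and 5950 in the knockout libraries. The median log2 changes of the 13 loci were −0.07 and 0.01 at 2 h and 4 h in parental cells, −0.01 and −0.11 in knockout cells and −0.01 between the controls.

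The loci whose ranks lay nearest to those of FOS over the 6 libraries were JDP2, MAFF and BATF3, with a mean absolute log2 difference of 0.50, 0.55 and 0.75. JDP2, a repressor of AP-1 that neighbours FOS on chromosome 14, ranked 22454, 33172 and 27805 in the parental libraries and 34821, 21137 and 38059 in the knockout libraries. Unlike FOS, it was strongest of the parental libraries in the control. MAFF, another small MAF protein, ranked 33892, 33660 and 22842 in the parental libraries and 41310, 29487 and 24058 in the knockout libraries, strongest at 4 h in parental cells like FOS. BATF3, which pairs with JUN proteins in lymphoid and dendritic cells, ranked 16895, 17099 and 14539, and 16422, 18590 and 26137, in the same order.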

How the data were processed

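H3K27ac ChIP-seq peak lists of 6 CCRF-CEM libraries were analysed, 1 per group, with coordinates on hg19. Per the submitters' processing notes, the tools the authors used include MACS2 2.1.2, which writes such lists, and BWA 0.7.17, an aligner. The notes also name Picard 2.9.2, SAMtools 1.8, Trimmomatic 0.39 and Trim Galore 0.6.2. Settings, and the control used for calling peaks, were not given in the sources used here. Times follow the sample labels, since the labels' shared protocol names 4 h only. Each library has its own deposited list, so peaks were called per library. The deposited values are, per peak, the authors' fold (a ratio of pileup over local background), −log10 p and −log10 q, and a score that repeats the −log10 q. Read counts were not analysed here. The depth measure was solved from the commonest combination of fold and p in a list, and the precision of a single library is unknown.

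The members, gene lists and measures were chosen with earlier results of these data known. All 8 members were to be named. Of the 13 related loci, those nearest to FOS in log2 rank and those called in a comparison with a called member were to be named. ATF2, EGR1, DUSP1 and SRF were named after their values were seen. The ranking in 14 kb windows was added after FOS proved to have no fixed region. Peaks on chromosomes 1 to 22 and X were ranked. The spans of other loci were entered by hand to 1 kb and their lengths were checked against RefSeq (GRCh38.p14), which also gave neighbours and promoters. Distances are from the 5′ edge of the span and so are known to about 1 kb, and positions are 1-based. Python 3.11.15 with pandas 2.3.3, numpy 2.4.6 and matplotlib 3.10.9 was used, and the steps were tested on simulated data. Alternatives to each choice are given in the closing section.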

Additional observations from a re-analysis of the deposited data

Results flagged for a closer look

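Of the 8 genes 1, FOS, and of the 13 related loci 3, EGR1, DUSP1 and SRF, had a change of rank that went one way in both treated parental libraries and the other way in both treated knockout libraries. For FOS the log2 changes were 0.41 at 2 h and 0.94 at 4 h in parental cells, and −0.03 at 2 h and −1.59 at 4 h in knockout cells. In the same order, EGR1 had changes of 0.99, 0.98, −0.13 and −0.11. DUSP1, a phosphatase that acts on MAP kinases, had 0.30, 0.38, −0.084 and −0.24. SRF, a regulator of immediate early genes, went the opposite way, with −0.25, −0.28, 0.15 and 0.89. The pattern is therefore not particular to FOS. It rests on signs alone, with no minimum size of change. The share of all 14 kb windows with such a pattern was not computed, so these counts have no background beside them. These differences between the genotypes were not tested, since each group is 1 library. The knockout 2 h value of FOS is close to 0 and has the opposite sign, 0.02, when the fold replaces p. All knockout 4 h values come from the library with a background pileup of 0.168, against 0.699 in its control.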

How the results depend on the processing

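No paired analysis was possible because each group is 1 library and no test between groups was made, and for the same reason no library could be left out within a group. Of 48 counts under an alternative, 24 stayed within 1.5 times the value reported and 24 did not. Without the comparison of knockout 4 h with its control these numbers were 20 and 19, with the edge counts over all 6 libraries kept in. A count can stay while its genes change. With 50 Mb of peaks the gene called in parental 4 h was FOSL1 (−1078 bp) in place of FOS. With all deposited peaks the genes called in knockout 4 h were FOSB, FOSL1 and ATF3, in place of FOS and FOSB. In knockout control against parental control the cover at FOSL1 was called in opposite directions, with 1401 bp more with all deposited peaks and a difference of −2141 bp with 50 Mb of peaks. Of fixed regions moved, parental 2 h and 4 h gave 0 in place of 1 with a factor of 2 in rank, with the fold as strength and with regions from 10000 peaks, and parental 4 h also gave 0 with 2 kb flanks. Knockout 4 h gave 1, 6 and 1 in place of 2 under the first 3 of these and 6 with a minimum of 5 in −log10 q, where knockout 2 h gave 2 in place of 0. Of genes with a change in cover, all deposited peaks gave 2 in parental 2 h, 2 in parental 4 h, 4 in knockout 2 h and 4 between the controls, in place of 0, 1, 0 and 2. With 50 Mb of peaks the counts were 2 in parental 2 h, 2 in knockout 2 h and 4 between the controls. With 20000 peaks they were 0 in parental 4 h, 1 in knockout 4 h and 1 between the controls. The gain of cover at FOS in parental 4 h was called with all deposited peaks (1090 bp) and with 2 kb flanks (1165 bp), and not with 20000 peaks or with 50 Mb of peaks. Genes with a peak at the 5′ edge in all 6 libraries went from 8 to 4 with 30000 peaks, to 1 with that minimum of 5, and to 6 within 1 kb. FOSB with 30000 peaks, and JUN, JUNB and FOSL2 with that minimum, lacked the peak in knockout 4 h only. The stricter lists hold fewer peaks by construction, and the cause of the other differences was not tested. With 28 kb windows, chosen after seeing the data, 40 of 40 changes of rank at the genes moved little, and the FOS value in parental 4 h was 0.85. With the fold as strength 37 of 40 did, and the other 3 were FOSB (−0.80), FOSL2 (0.05) and JUN (0.37) in knockout 4 h, where FOSL2 and JUN changed sign. The ranks themselves moved in 46 of 48 cases with the fold and in 48 of 48 with 28 kb windows, and with the fold the order of the 8 genes changed. The FOS peak is weak in all 6 libraries, and a single library per group gives no error for any of its values.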
